A study of Mus musculus with 15 samples.

Results

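Liver gene expression was compared between the paternal lineages of 2 kinds of early malnutrition in their second generation. One side was 3 pools of liver from adult male mice whose fathers had been growth-restricted before birth (IUGR F2, pools 10, 11 and 12). The other was 3 pools from adult male mice whose fathers had been overnourished while suckling (ON F2, pools 13, 14 and 15). These 6 of the 15 arrays of the series were identified by their sample titles, and the comparison was chosen with earlier results of these data known. Control arrays entered only 1 alternative fit, for the spread, so every difference is of one lineage against the other and does not say which of them stands away from unexposed mice.

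The fathers had met either a maternal food supply cut by 50% during gestation (IUGR F1) or overfeeding during lactation (ON F1). The F2 mice themselves met neither, as far as the design text says, and all groups are adult males. Their strain, their age beyond adult, their mothers and the litters behind each pool are not stated. The question the study put was whether expression patterns of exposed males are found again in their sons. Each array held RNA of pooled whole liver, hybridised to the Affymetrix GeneChip Mouse Genome 430 2.0, and the number 3 that opens each title was taken for the livers in a pool. Nothing ties the pools of a lineage to different litters or sires. The p-values therefore cover pool-to-pool spread, which may be smaller than that between families.

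Prenatal food restriction and early overfeeding are textbook models of developmental programming, in which a nutritional challenge early in life alters adult metabolism. In the liver such programming has mostly been described for lipid synthesis, glucose output and the methyl donor pathways that feed DNA and histone methylation. Transmission through fathers is of interest because sperm carry little beside DNA, chromatin and RNA to the next generation.

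Values are log2 levels per gene from robust multi-array averaging (RMA), read at the gene's brightest probe set. A difference is the mean of the IUGR F2 pools minus that of the ON F2 pools with the standard error from limma, a linear model fitted over the 12 arrays of both lineages and generations. A gene was called where its p-value after Benjamini-Hochberg adjustment over all 18193 genes was under 0.05. In whole liver, fewer cells of a type and less RNA per cell cannot be told apart.

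The 6 pools resembled each other closely, with correlations of 0.989 to 0.995 between pairs over all probe sets with 1 gene symbol. Pairs within a lineage (mean 0.993) were hardly closer than pairs across lineages (mean 0.992). Pool 13 of ON F2 stood apart. There 37 genes lay more than 1 log2 unit above every other F2 pool, against 0 to 4 such genes in each of the other pools, and 15 of the 37 were pancreatic digestive enzyme or acinar genes. Pools 13 and 14 also shared high levels of clock-controlled genes. Actin control probe sets, whose ratio of 3' to 5' signal is a sign of RNA length, ranged from 1.84 to 2.28 on the log2 scale and were highest in pool 12. The labelled tissue was borne out by 12 hepatocyte markers, whose mean level lay between 12.77 and 12.86 in every pool and whose median difference between the lineages was 0.00.

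Between the lineages 3 genes were called, which is 0.0165% of the genes tested. Adi1 and Mtif2 were higher in the sons of IUGR males (0.0110%), and Mmd2 was lower (0.00550%). At an unadjusted p under 0.05 stood 1783 genes (9.80%), of which 949 (5.22%) were higher and 834 (4.58%) lower in IUGR F2. The first share moved with the scaling, to 645 of 1516 after quantile normalization was repeated and to 1318 of 1877 with each array centred on its median. The 3 pools of one lineage lay wholly above or below the other in 3112 genes (17.1%), 1601 of them higher (8.80%) and 1511 lower (8.31%). The median difference over all genes was -0.01, with the lower mean in IUGR F2 in 53.4% of them and the higher mean in 46.6%.

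Adi1 encodes acireductone dioxygenase, an enzyme of the methionine salvage pathway that returns the methylthio group of spent S-adenosylmethionine to methionine. Its level was 9.02, 8.97 and 9.30 in the IUGR F2 pools and 8.31, 8.34 and 8.38 in the ON F2 pools, so the lineages did not overlap. The difference was 0.75 ± 0.09, a 1.69-fold higher level in IUGR F2 (limma adjusted p = 0.0177). A second probe set of the gene differed the same way and by more, reading 8.35, 8.15 and 9.15 against 6.41, 6.58 and 6.27. The third ran the other way, at 7.98, 8.09 and 7.84 against 8.06, 8.33 and 8.40. The probe sets of Adi1 therefore disagreed, and 2 of 3 showed the higher level in IUGR F2.

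Mtif2 encodes the initiation factor that places the first transfer RNA on mitochondrial ribosomes. It read 7.96, 8.03 and 8.14 in IUGR F2 and 7.54, 7.45 and 7.46 in ON F2. The difference was 0.56 ± 0.08 (limma adjusted p = 0.0491), on the single probe set the array has for the gene.

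Mmd2, a membrane protein of the progestin and adipoQ receptor family, was at 5.29, 5.38 and 5.62 in IUGR F2 and at 6.79, 6.35 and 6.71 in ON F2. It fell by 1.19 on the log2 scale with a standard error of 0.14 (limma adjusted p = 0.0177), a 2.28-fold lower level, again without overlap. A second probe set followed it (5.15, 5.22 and 5.47 against 7.03, 6.01 and 6.81), and the third, dim in every pool, lay at 4.40 to 4.58.

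Which genes were called rested on single pools, although the sizes hardly moved. Without ON F2 pool 13, or without pool 15, 0 genes were called by limma, with 1833 and 1589 genes at an unadjusted p under 0.05. The fit of the 6 F2 arrays alone also called 0 genes, with 2024 at an unadjusted p under 0.05. Across all settings in which an F2 pool was left out, Adi1 differed by 0.65 to 0.82, Mtif2 by 0.51 to 0.60 and Mmd2 by -1.32 to -1.10. Their adjusted p-values over every alternative ran from 0.00434 to 0.293 for Adi1, from 0.0204 to 0.350 for Mtif2 and from 0.00434 to 0.123 for Mmd2.

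Genes beside the called ones on the chromosome, chosen after their values were seen, differed less. The RefSeq neighbours of Adi1 are Rnaseh1, which was higher by 0.32 ± 0.12 (limma adjusted p = 0.410), and Trappc12, at -0.12 ± 0.11. Prorsd1, next to Mtif2, was higher by 0.33 ± 0.08 (limma adjusted p = 0.274), and Clhc1 on its other side differed by 0.03 ± 0.10. The genes on either side of Mmd2, Papolb and Wipi2, differed by 0.00 ± 0.13 and 0.06 ± 0.14.

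The next genes by p-value did not pass the adjustment. Among those higher in IUGR F2 were Dnttip2, which acts in ribosomal RNA processing, and Ints2, a subunit of the Integrator complex that processes small nuclear RNAs. Dnttip2 read 7.30, 7.38 and 7.37 against 6.94, 6.81 and 6.81, a difference of 0.50 ± 0.08 (limma adjusted p = 0.0853). Ints2 read 6.85, 6.74 and 6.68 against 6.20, 6.14 and 6.32, a difference of 0.54 ± 0.09 (limma adjusted p = 0.0999). For both genes the second probe set leaned the same way. Iqcg, a protein of motile cilia and flagella, had the widest gap of the 10 higher genes, at 5.30, 5.27 and 5.59 against 3.95, 4.23 and 4.61 (1.12 ± 0.19). Niban3, the histone methyltransferase gene Nsd3, the ubiquitin ligase gene Rnf144b, the RNA helicase gene Ddx31 and the DNA damage checkpoint gene Rad17 completed the 10, with differences of 0.37 to 0.43. All 10 had IUGR F2 pools wholly above the ON F2 pools (8.80% of all genes), a separation that picking by the smallest p favours. Of the 6 probe sets of Nsd3 only the one used showed a gap of this size, and the others lay between -0.02 and 0.17. The 2 other probe sets of Rnf144b, both dim, gave 0.27 and -0.24.

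**Figure D1:**
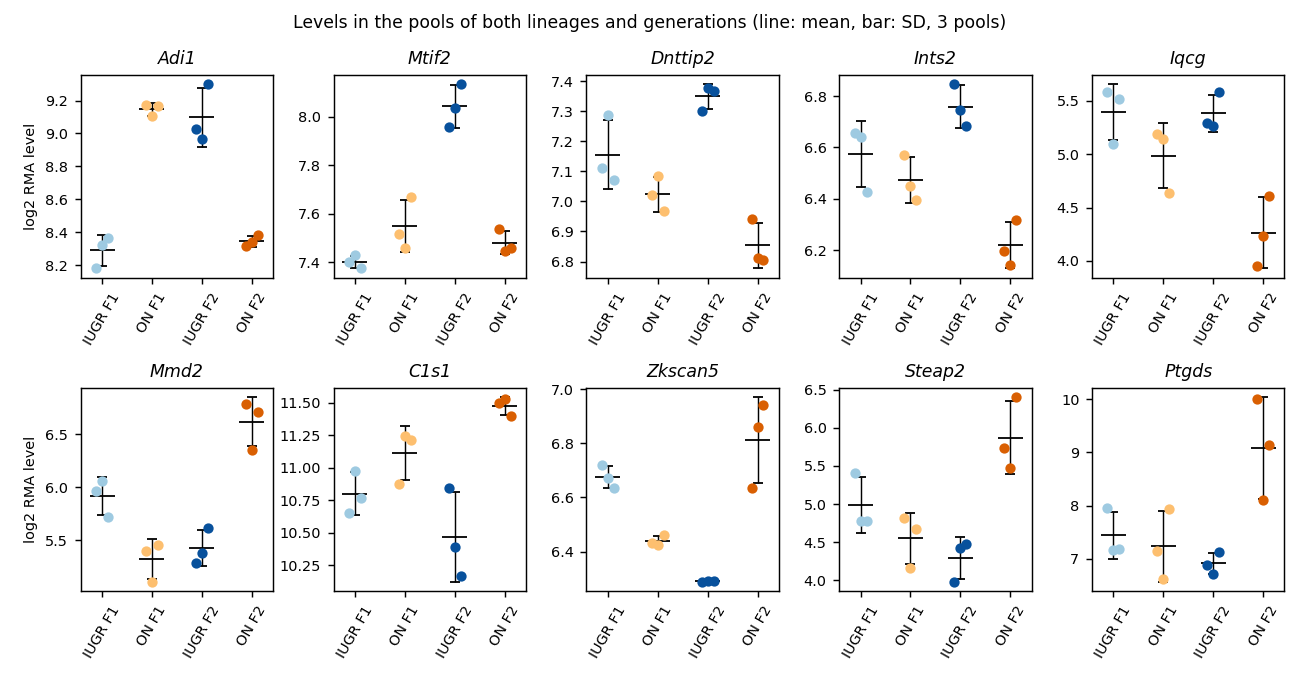
Log2 RMA level of 10 genes in every pool of the 4 exposed groups (points), with the mean (line) and SD (bar) over 3 pools. The upper row holds genes higher and the lower row genes lower in IUGR F2 than in ON F2. In each panel the dark blue IUGR F2 points and the dark orange ON F2 points do not overlap, and in the panels of Adi1, Mtif2, Mmd2 and Zkscan5 the pale F1 points are also apart, in the opposite order.

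Among genes lower in IUGR F2, C1s1 encodes the serine protease C1s that cuts C4 and C2 at the start of the classical complement pathway. It read 10.85, 10.39 and 10.17 in IUGR F2 and 11.50, 11.53 and 11.40 in ON F2, a difference of -1.01 ± 0.16 (limma adjusted p = 0.0853). Without IUGR F2 pool 10 it was called, at -1.20 (adjusted p = 0.0272). Its adjusted p over all alternatives ran from 0.0272 to 0.594. Zkscan5, a zinc finger gene, read 6.29 in all 3 IUGR F2 pools and 6.64, 6.86 and 6.94 in ON F2 (-0.52 ± 0.08).

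Steap2, a metalloreductase of endosomes, read 3.98, 4.43 and 4.48 against 5.74, 5.47 and 6.40, a difference of -1.57 ± 0.25 (limma adjusted p = 0.0853), and all 5 of its probe sets had the lower mean in IUGR F2. Ptgds, which makes prostaglandin D2 and carries retinoids and other lipids, had the widest gap of the 10 lower genes. It lay at 6.89, 6.72 and 7.13 in IUGR F2 and at 10.01, 8.10 and 9.14 in ON F2, a difference of -2.17 ± 0.42 (limma adjusted p = 0.178). Its second probe set read 4.85, 4.78 and 5.41 against 8.71, 6.27 and 7.71. The ON F2 pools thus differed among themselves in Ptgds by more than 1 log2 unit, and still each lay above every IUGR F2 pool. Limd2 (-0.70), the secreted protease inhibitor-like gene Wfdc2 (-1.42), Tspan11 (-0.43), Mospd3 (-0.49) and the mitochondrial adenylate kinase Ak3 (-0.42) made up the rest of the 10. The lineages overlapped in none of them (8.31% of all genes were lower without overlap), which the choice by smallest p again favours. The 3 other probe sets of Tspan11 gave 0.11, 0.10 and -0.05, and the mean over its probe sets differed by -0.07.

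The same contrast in the fathers' generation gave other values. Between IUGR F1 and ON F1, 1 gene was called (0.00550%), Adi1, and 1137 genes (6.25%) had an unadjusted p under 0.05, of which 415 (2.28%) were higher and 722 (3.97%) lower in IUGR F1. The pools did not overlap in 1807 genes (9.93%), 741 higher (4.07%) and 1066 lower (5.86%), against the 3112 of the second generation. Of the 20 genes described above, 10 had the same sign in both generations and 10 the opposite sign. Over all genes 50.4% had the same sign, and Pearson's r between the differences was -0.03, a description across genes, which are not independent replicates. The 2 contrasts share no array, and no sample title says that the F1 mice were the fathers of the F2 mice.

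Whether the lineage difference itself differed between generations was tested as an interaction, which called 3 genes (0.0165%), 2 positive (0.0110%) and 1 negative (0.00550%). At an unadjusted p under 0.05 stood 1399 genes (7.69%), 819 positive (4.50%) and 580 negative (3.19%). At the probe set used, Adi1 was exchanged between the lineages. It read 8.18, 8.32 and 8.36 in IUGR F1 and 9.17, 9.10 and 9.16 in ON F1. The IUGR line was thus lower than the ON line in the first generation (-0.86 ± 0.09, limma adjusted p = 0.00862) and higher in the second. The interaction was 1.61 ± 0.13 (limma adjusted p = 0.000338) and was called in every alternative run, with adjusted p-values of 3.08e-05 to 0.0216.

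Mmd2 had the opposite arrangement, at 5.97, 6.06 and 5.72 in IUGR F1 and 5.40, 5.11 and 5.46 in ON F1. Its interaction was -1.78 ± 0.20 (limma adjusted p = 0.00688). It was lost when all probe sets of a gene were averaged (-1.20, adjusted p = 0.131) and with a clock score as covariate (-1.92, adjusted p = 0.127). Aqp4, a water channel, read 5.10, 4.69 and 4.60 in IUGR F1, 6.95, 5.89 and 6.62 in ON F1, 5.45, 5.35 and 5.13 in IUGR F2 and 3.69, 3.72 and 4.69 in ON F2. The interaction was 2.97 ± 0.40 (limma adjusted p = 0.0358), and its adjusted p over the alternatives ran from 0.00436 to 0.844. With all probe sets of the gene averaged it was 1.06 (limma adjusted p = 0.166). The 2 other probe sets of Aqp4, both dim, gave lineage differences of 0.18 and -0.15 in F2 and of -0.16 and -0.02 in F1.

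**Figure D2:**
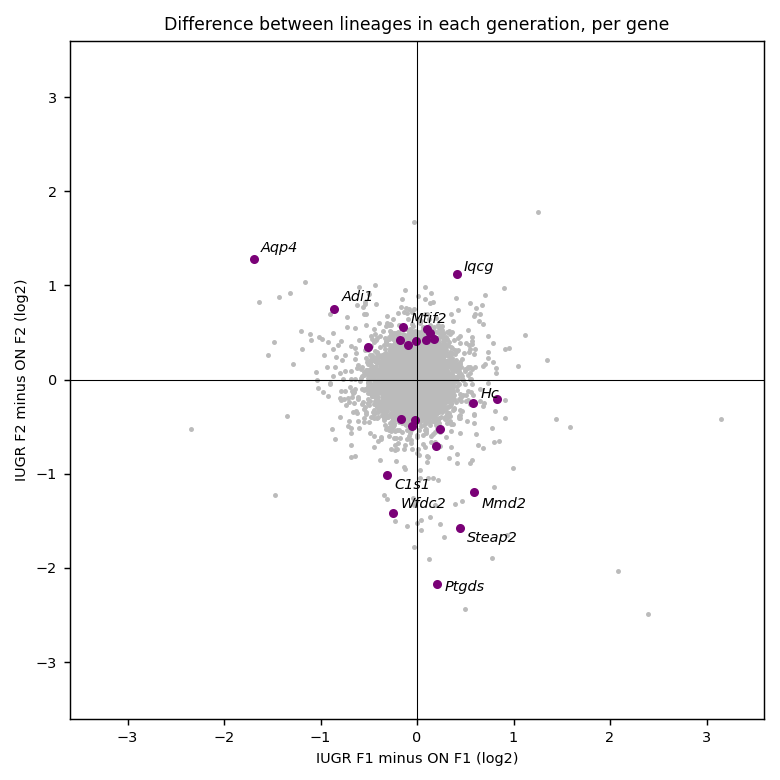
Each point is 1 of 18193 genes, with the difference between lineages in the first generation (IUGR F1 minus ON F1, log2) on the x axis and in the second (IUGR F2 minus ON F2, log2) on the y axis. Purple points are the genes with the smallest p-values in the F2 contrast or in the interaction, and some of them are named. Adi1 and Aqp4 lie in the upper left and Mmd2 and Steap2 in the lower right, where the sign differs between generations, and the cloud as a whole has no slope (r = -0.03).

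Clock genes differed between the lineages in both directions without a call, and 2 of the ON F2 pools, 13 and 14, stood apart from the other 4. The liver clock is a loop in which ARNTL (BMAL1) with CLOCK or NPAS2 binds E-boxes and drives the Per and Cry genes, whose products then block them. REV-ERB proteins (Nr1d1, Nr1d2) repress Arntl, and the PAR-domain factors DBP and TEF, opposed by NFIL3, act on D-boxes in output genes. The levels of these genes run through wide daily cycles, and no label gives the time of day at which the mice were killed.

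The promoters of 4 of these genes show the 2 elements, in GRCm38.p6 sequence from RefSeq that runs from 250 bases before to 50 bases after the gene's start, on the gene's strand. Capitals mark matches to the E-box CACGTG or the D-box TTATGNAA, searched on both strands. Ciart lies at chr3:95882179-95882478 (minus strand), Per3 at chr4:151044616-151044915 (minus), Tef at chr15:81802423-81802722 (plus, the first of 2 promoters listed) and Cry1 at chr10:85185005-85185304 (minus).
Ciart: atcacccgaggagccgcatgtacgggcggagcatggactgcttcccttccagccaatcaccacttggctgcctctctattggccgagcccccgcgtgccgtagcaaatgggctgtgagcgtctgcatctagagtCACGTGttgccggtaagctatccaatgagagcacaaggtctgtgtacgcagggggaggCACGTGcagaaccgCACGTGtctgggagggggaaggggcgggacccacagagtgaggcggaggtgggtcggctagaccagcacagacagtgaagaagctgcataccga
Per3: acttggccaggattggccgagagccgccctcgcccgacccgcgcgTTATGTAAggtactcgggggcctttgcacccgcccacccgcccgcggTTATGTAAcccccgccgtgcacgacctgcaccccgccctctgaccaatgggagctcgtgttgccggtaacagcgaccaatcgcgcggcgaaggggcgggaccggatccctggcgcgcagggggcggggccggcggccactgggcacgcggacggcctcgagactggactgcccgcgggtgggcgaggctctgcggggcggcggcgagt
Tef: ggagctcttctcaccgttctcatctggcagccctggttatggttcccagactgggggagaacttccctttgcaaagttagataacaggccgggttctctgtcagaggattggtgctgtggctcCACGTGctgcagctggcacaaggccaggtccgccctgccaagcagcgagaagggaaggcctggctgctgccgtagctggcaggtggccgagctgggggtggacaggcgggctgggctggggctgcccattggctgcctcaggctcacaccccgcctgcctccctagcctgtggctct
Cry1: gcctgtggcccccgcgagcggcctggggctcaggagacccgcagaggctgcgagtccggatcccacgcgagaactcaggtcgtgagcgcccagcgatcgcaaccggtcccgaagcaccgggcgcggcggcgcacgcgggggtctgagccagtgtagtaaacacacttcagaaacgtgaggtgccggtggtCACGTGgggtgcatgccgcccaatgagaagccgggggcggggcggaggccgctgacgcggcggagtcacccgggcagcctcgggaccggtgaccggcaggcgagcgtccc

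Ciart, a repressor in the loop, holds 3 CACGTG matches in this window, Tef and Cry1 hold 1 each, and Per3 holds 2 TTATGNAA matches. Of the 32851 promoters listed by RefSeq, 7.15% hold CACGTG and 3.38% hold TTATGNAA. Among the core clock genes 13 of 16 had a promoter there, with 20 promoters in all, of which 4 held CACGTG (20%) and 2 TTATGNAA (10%). Among the clock output genes 16 of 18 had one, again with 20 promoters, of which 6 held CACGTG (30%) and 2 TTATGNAA (10%). A match describes letters only.

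Of the 16 core clock genes measured, 4 were higher and 5 lower at an unadjusted p under 0.05 (background 5.22% and 4.58%), and none was called (smallest limma adjusted p = 0.296). Their median difference was -0.26. The activators were higher in IUGR F2. Clock read 7.62, 7.63 and 7.46 against 7.16, 6.73 and 7.36 (0.49 ± 0.13), and Npas2 read 5.67, 5.83 and 5.78 against 4.78, 3.81 and 5.57 (1.04 ± 0.41). Arntl read 7.58, 7.61 and 7.35 against 6.80, 5.51 and 7.52 (0.91 ± 0.41), and there pool 15 lay within the IUGR F2 range. In all 3 activators the IUGR F2 pools were close together and pool 14 was lowest.

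Negative arms of the loop went both ways. Per3 read 4.77, 4.52 and 4.57 in IUGR F2 and 6.42, 7.47 and 4.92 in ON F2, a difference of -1.65 ± 0.52. Nr1d2 read 8.14, 8.46 and 8.34 against 9.50, 9.69 and 8.55 (-0.94 ± 0.42), and Cry2 was lower by 0.41 ± 0.14. Cry1 was the exception among the repressors, at 6.55, 6.64 and 6.20 against 5.47, 5.35 and 6.18 (0.80 ± 0.30). Ciart, at 5.34, 5.13 and 5.41 against 5.79, 6.33 and 5.17, overlapped between the lineages (-0.47 ± 0.22).

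Of the 18 clock output genes, 3 were higher and 4 lower at an unadjusted p under 0.05 (background 5.22% and 4.58%). Their median difference was -0.23, with no call (smallest limma adjusted p = 0.292). Dbp had the widest range of all, at 5.46, 6.18 and 7.97 in IUGR F2 and 9.84, 10.71 and 6.54 in ON F2 (-2.49 ± 1.16). Tef read 8.25, 8.32 and 8.39 against 9.28, 9.83 and 8.43 (-0.86 ± 0.30). Both PAR-domain factors were thus high in pools 13 and 14, while pool 15 lay at or near the IUGR F2 levels. The deubiquitinase gene Usp2 (-0.83 ± 0.28), the mitotic kinase gene Wee1 (-0.95 ± 0.28) and the uridine phosphorylase gene Upp2 (-1.07 ± 0.36) were likewise highest in pools 14 and 13. Nfil3 was lowest in those pools, with 8.28, 8.44 and 8.48 against 7.81, 6.94 and 8.04 (0.81 ± 0.26).

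**Figure D3:**
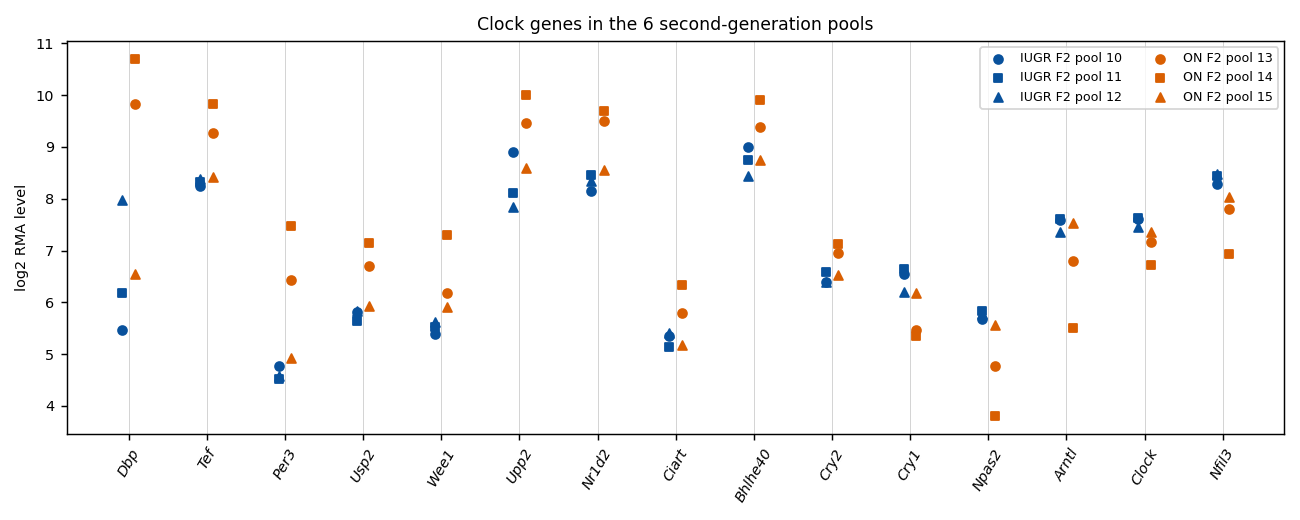
Log2 RMA level of 15 clock and clock output genes in the 6 F2 pools (blue IUGR F2, orange ON F2, the marker shape giving the pool). The ON F2 circle and square (pools 13 and 14) lie apart from the other 4 pools, above them from Dbp to Cry2 and below them from Cry1 to Nfil3, with the ON F2 triangle (pool 15) near the blue points.

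A clock score, the mean of 7 genes of one phase minus that of 3 genes of the other, was -0.79, -0.68 and -0.26 in IUGR F2 and 1.46, 2.88 and -0.40 in ON F2. The 7 were Dbp, Tef, Per3, Nr1d1, Nr1d2, Usp2 and Ciart, and the 3 were Arntl, Npas2 and Clock. Without pools 13 and 14 the medians were 0.00 for the core clock and 0.04 for its output, and Dbp differed by 0.00. Those pools were picked after their clock gene levels were seen, so the small clock differences without them followed from the choice and test nothing. The setting also leaves ON F2 with pool 15 alone, whose spread is then assumed to equal that of the other groups. With the score as a covariate 1 gene was called, Steap2, and the share of the lineage difference that goes with the clock phase of pools 13 and 14 was not tested further.

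Most markers of the sinusoidal cells of the liver had lower means in the IUGR lineage. Kupffer cells are the resident macrophages of the sinusoids and clear particles and old red cells. All 19 of their measured markers had a lower mean in IUGR F2, where 53.4% of all genes did, with a median difference of -0.33. At an unadjusted p under 0.05 stood 11 of the 19 (background 4.58%), 3 had no overlap between the lineages (background 8.31%), and none was called (smallest limma adjusted p = 0.214).

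Csf1r, the receptor for the macrophage growth factor, read 8.01, 8.69 and 8.20 in IUGR F2 and 9.09, 8.83 and 8.88 in ON F2 (-0.63 ± 0.14). Vsig4, a complement receptor, read 7.16, 7.98 and 7.23 against 8.35, 7.99 and 8.11 (-0.70 ± 0.17). Folr2, a folate receptor of resident macrophages, read 5.29, 5.39 and 5.30 against 5.67, 5.58 and 5.70 (-0.32 ± 0.09). These 3 did not overlap between the lineages, although IUGR F2 pool 11 came closest to the ON F2 pools in each.

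Timd4 (-0.40 ± 0.12), the C1q chain gene C1qb (-0.47 ± 0.16), the macrophage surface receptor gene Adgre1 (-0.45 ± 0.15), and the scavenger Cd5l (-0.60 ± 0.23) overlapped between the lineages. The mean level of the 19 markers was 6.49, 6.98 and 6.65 in IUGR F2 and 7.37, 6.84 and 6.97 in ON F2, so pool 11 reached the ON F2 range and pool 13 was highest. Without pool 13 the median was -0.28 and 16 of 19 were lower. Without pool 11 it was -0.51, and Csf1r (-0.82, limma adjusted p = 0.0230) and Vsig4 (-0.96, adjusted p = 0.0230) were called, the adjusted p over all alternatives running up to 0.716 and 0.803. In the fathers' generation 18 of 19 were lower in the IUGR group than in the ON group, with a median of -0.25.

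Sinusoidal endothelium, the fenestrated lining beside the Kupffer cells, leaned the same way. All 16 markers had a lower mean in IUGR F2 (53.4% of all genes), with a median of -0.18, 2 at an unadjusted p under 0.05 (background 4.58%) and none called. The median was -0.15 without pool 13 and ran from -0.29 to -0.07 with single F2 pools left out. Flt4, the lymphatic VEGF receptor, read 6.78, 6.97 and 6.79 against 7.15, 6.92 and 7.43 (-0.32 ± 0.12), and Mrc1, the mannose receptor, differed by -0.37 ± 0.16. Their mean level was 6.33, 6.66 and 6.42 in IUGR F2 and 6.69, 6.44 and 6.87 in ON F2, ranges that overlapped. Stellate cell and matrix markers were lower in 15 of 20 (median -0.11, also without pool 13), with Hgf, which encodes hepatocyte growth factor, among the exceptions at 4.56, 4.81 and 4.66 against 4.33, 4.03 and 4.41 (0.42 ± 0.12).

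White blood cell markers were mostly dim. Ighm, the immunoglobulin mu heavy chain, read 8.43, 8.59 and 7.89 in IUGR F2 and 9.05, 8.75 and 10.98 in ON F2 (-1.29 ± 0.52), with pool 15 more than 1 log2 unit above every other. H2-DMa, which helps load peptides on MHC class II, read 4.89, 5.02 and 4.90 against 5.08, 5.34 and 5.32 (-0.31 ± 0.09). All 8 neutrophil markers had the lower mean in IUGR F2 (median -0.21), and 6 of them had a mean level below 5. Their mean level was 4.57, 4.73 and 4.90 in IUGR F2 and 5.49, 4.78 and 4.71 in ON F2, so that only pool 13 lay above the IUGR F2 range. Without pool 13 the median was -0.13. S100a8 was at 7.15 in pool 13 and at 4.13 to 4.77 in the other 5 pools.

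Pancreatic acinar genes were set by a single pool. Cpb1, a pancreatic carboxypeptidase, read 9.35 in ON F2 pool 13 and 3.59 to 3.84 in the other 5 pools. Ctrb1, which encodes chymotrypsinogen, read 10.06 there and 4.95 to 5.36 elsewhere. Of 17 such genes all had the lower mean in IUGR F2, with a median of -1.41, and without pool 13 the median was -0.05 with 12 of 17 lower. Cela1 alone of the 17 was bright in every pool, at 10.17 to 10.86.

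**Figure D4:**
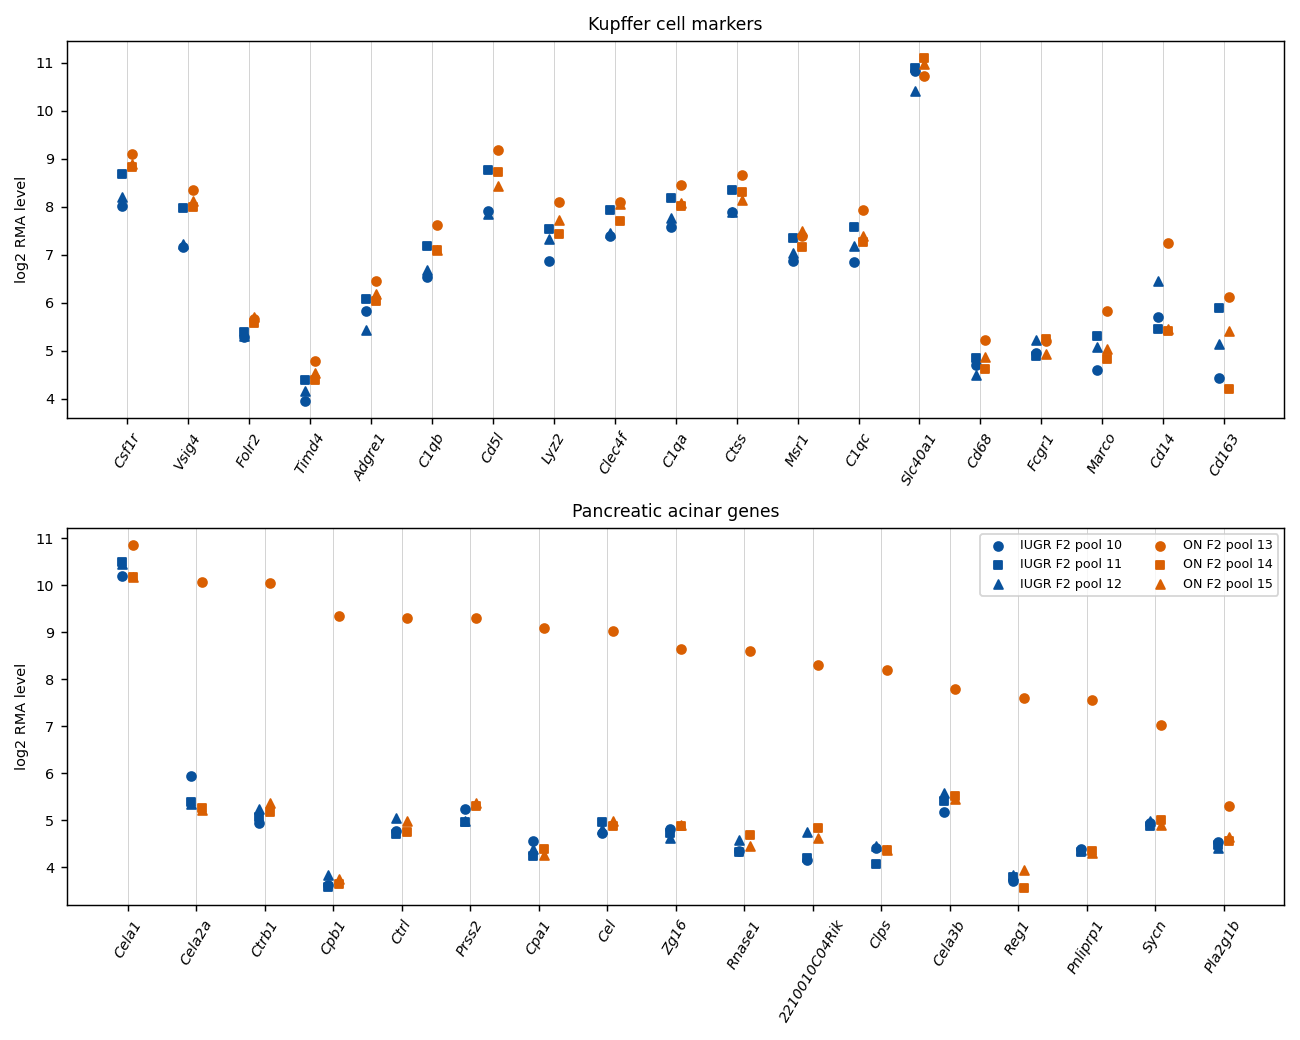
Log2 RMA level of 19 Kupffer cell markers (upper panel, ordered by p) and 17 pancreatic acinar genes (lower panel, ordered by pool 13) in the 6 F2 pools, blue IUGR F2 and orange ON F2, with the marker shape giving the pool. In the upper panel the blue circle and triangle (pools 10 and 12) are mostly lowest and the blue square (pool 11) lies among the orange points. In the lower panel pool 13 alone stands high.

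Fatty acid synthesis leaned to lower levels in the sons of IUGR males. Of 26 genes 22 had the lower mean (53.4% of all genes), with a median of -0.19, 2 at an unadjusted p under 0.05 (background 4.58%) and none called (smallest limma adjusted p = 0.313). Thrsp (Spot 14), a nuclear protein that promotes lipogenesis, read 11.49, 11.06 and 10.06 in IUGR F2 and 12.08, 12.76 and 12.36 in ON F2, a difference of -1.53 ± 0.45 without overlap, and its 2 other probe sets were also lower. The desaturase Fads2 read 10.10, 10.00 and 10.19 against 10.21, 10.40 and 10.42 (-0.25 ± 0.13). Fasn, which builds palmitate, read 11.36, 11.10 and 10.75 against 11.06, 11.57 and 11.80 (-0.41 ± 0.32) and overlapped. Without pools 13 and 14 the list's median was -0.43, without pool 13 it was -0.23, and without pool 15, in which Fasn was highest, it was -0.09.

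Srebf1, the sterol-regulated activator of lipogenic genes, read 11.21, 11.35 and 10.63 in IUGR F2 and 11.16, 11.77 and 11.58 in ON F2 (-0.44 ± 0.23), and without pool 12 the difference was -0.22. Pklr, the glycolytic enzyme liver pyruvate kinase, read 9.31, 8.79 and 8.87 against 8.94, 9.32 and 9.88 (-0.39 ± 0.29), and without pool 15, its highest, the difference was -0.14. Both genes overlapped between the lineages. For lipid storage, G0s2, the inhibitor of the lipase ATGL, read 9.48, 9.71 and 9.43 in IUGR F2 against 8.65, 8.52 and 9.18 in ON F2 (0.76 ± 0.27). Fitm1, a protein of lipid droplet formation, read 7.75, 7.83 and 7.88 against 7.93, 8.53 and 9.21 (-0.74 ± 0.23). Neither overlapped and neither was called (limma adjusted p = 0.402 and 0.343). Of the 18 lipid droplet and lipolysis genes measured, 13 had the higher and 5 the lower mean, with a median of 0.02. In that list 1 gene was higher and 1 lower without overlap (background 8.80% and 8.31%).

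Sterol and bile acid genes had single members apart in both directions. Both subunits of the sterol exporter of the canalicular membrane were lower in IUGR F2, Abcg8 at 7.83, 7.65 and 7.77 against 8.12, 8.29 and 8.07 (-0.41 ± 0.11) and Abcg5 at 9.20, 9.04 and 8.84 against 9.36, 9.86 and 9.27 (-0.47 ± 0.16). Cyp8b1, which directs synthesis to cholic acid, was higher, at 11.26, 11.32 and 11.61 against 10.97, 10.71 and 11.15 (0.45 ± 0.13). Slc27a5, which activates bile acids for conjugation, read 12.51, 12.45 and 12.54 against 12.68, 12.63 and 12.67 (-0.16 ± 0.07). None of the 4 overlapped between the lineages, and none was called (smallest limma adjusted p of the list 0.291). Of the 18 bile acid genes, 1 was higher and 5 were lower without overlap (background 8.80% and 8.31%). Cyp7a1, the rate-limiting enzyme, read 9.37, 8.99 and 10.06 against 9.35, 9.16 and 8.97 (0.32 ± 0.23). Pool 12 was highest by 0.69, and without it the difference was 0.024. Of the 18 genes 9 were higher and 9 lower, with a median of 0.00. The cholesterol synthesis, beta-oxidation and PPARA lists had medians of 0.01, 0.01 and 0.04, with no member called.

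Beside C1s1, the complement list of 17 genes had 13 lower members and a median of -0.08. C1ra, whose product activates C1s, read 10.61, 10.49 and 10.57 in IUGR F2 and 10.92, 10.79 and 10.78 in ON F2 (-0.27 ± 0.08). Hc, complement C5, read 12.63, 12.69 and 12.65 against 13.01, 12.88 and 12.83 (-0.25 ± 0.10). In the first generation Hc was higher in IUGR F1 than in ON F1 (0.58 ± 0.10). Its interaction of -0.83 ± 0.14 did not pass (limma adjusted p = 0.157). With pool 10 left out the list's median was 0.01.

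Protein quality control genes leaned upward by small amounts. Of 25 proteasome subunits 23 had the higher mean in IUGR F2 (46.6% of all genes), with a median of 0.12, 8 without overlap (background 8.80%) and none called. Psmb2, a catalytic-core subunit, read 9.22, 9.27 and 9.31 against 9.06, 9.06 and 9.08 (0.20 ± 0.07), and Psmb6 differed by 0.16 ± 0.07. Without pool 11 the median was 0.07, and without pools 13 and 14 it was 0.05. The fathers' generation had 22 of 25 higher, with a median of 0.05. Of 29 respiratory chain subunits 22 were higher (median 0.04), led by Ndufv1 of complex I at 10.80, 10.86 and 11.00 against 10.56, 10.62 and 10.68 (0.27 ± 0.10), and without pools 13 and 14 that median was -0.06.

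Endoplasmic reticulum chaperone genes were higher in 17 of 21 (46.6% of all genes), with a median of 0.19. Dnajb9, a cochaperone of BiP induced by misfolded protein, read 10.84, 10.63 and 11.19 in IUGR F2 against 10.44, 10.54 and 10.07 in ON F2 (0.54 ± 0.15, limma adjusted p = 0.293). The other named members overlapped, with Creld2 at 0.81 ± 0.41 and Manf at 0.42 ± 0.21, and pool 15 was lowest in both. Without pool 15 the list's median was 0.07, and without pool 13 it was 0.32.

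Interferon response genes had the higher mean in IUGR F2 in 20 of 25 (46.6% of all genes), with a median of 0.20, 2 at an unadjusted p under 0.05 (background 5.22%) and none called. Without pool 13 the median was 0.21. Stat2, the signal transducer of the type I receptor, read 5.95, 6.13 and 5.92 against 5.64, 5.61 and 5.84 (0.30 ± 0.11), and its partner Irf9 differed by 0.47 ± 0.17. Usp18, which restrains the receptor, read 7.05, 6.07 and 6.90 against 5.70, 5.88 and 5.68 (0.92 ± 0.53). In the first generation 24 of the 25 were lower in the IUGR group, with a median of -0.57. For 14 of the 25 the interaction had an unadjusted p under 0.05 (background 7.69%), none called.

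Genes of DNA replication mostly had lower means in IUGR F2. Of 22 cell cycle genes 19 had the lower mean (53.4% of all genes), with a median of -0.25, 6 at an unadjusted p under 0.05 (background 4.58%) and none called. The helicase subunit Mcm3 read 4.66, 4.86 and 4.56 against 5.19, 5.29 and 5.11 (-0.50 ± 0.15), Mcm5 differed by -0.82 ± 0.25, and E2f1, an activator of replication genes, by -0.30 ± 0.10. Of the list 12 of 22 had a mean level below 5, where RMA compresses differences. Without pool 13 the median was -0.10. The growth gene Myc, an immediate early gene, read 5.65, 4.98 and 5.49 against 6.15, 6.22 and 6.31 (-0.86 ± 0.18, limma adjusted p = 0.207).

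Genes of the epigenetic lists, which the study's question touches, gave single members apart and no call. Dnmt3b, a de novo DNA methyltransferase, was higher in IUGR F2, at 7.13, 6.79 and 6.89 against 6.01, 5.71 and 6.51 (0.86 ± 0.21, limma adjusted p = 0.253). Dnmt3a differed by 0.41 ± 0.21 with overlap, and the 14 genes of the list split 7 to 7 with a median of -0.01. Among 21 imprinted genes 15 had the lower mean (median -0.08). Peg3, a zinc finger gene expressed from the paternal copy, read 6.26, 5.65 and 5.39 in IUGR F2 and 7.09, 6.76 and 7.25 in ON F2 (-1.27 ± 0.29, limma adjusted p = 0.224), and all 5 of its probe sets had the lower mean. Kcnq1ot1, a paternally expressed long RNA, read 6.84, 6.36 and 6.48 against 5.95, 6.19 and 5.85 (0.56 ± 0.30).

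Of the methionine cycle and salvage list, 11 of 19 genes had the higher mean (median 0.06) and Adi1 was the only call. Dmgdh, which strips methyl groups from dimethylglycine, read 11.15, 11.07 and 11.08 against 10.79, 10.95 and 10.98 (0.20 ± 0.07). Mat2b, the regulatory subunit of methionine adenosyltransferase, read 7.32, 7.62 and 7.40 against 7.70, 7.76 and 7.76 (-0.29 ± 0.10). The hepatocyte synthetase Mat1a differed by -0.12 ± 0.13 and Enoph1, the enzyme just before Adi1 in salvage, by 0.21 ± 0.14.

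Single genes of other lists stood apart without a call. Asns, asparagine synthetase, a target of ATF4, read 6.01, 6.00 and 6.18 in IUGR F2 and 7.70, 7.48 and 6.98 in ON F2 (-1.32 ± 0.35), while Atf4 itself differed by 0.18 ± 0.10. Sox9, a factor of bile duct cells that is also seen in some hepatocytes, read 7.00, 6.92 and 6.76 against 6.26, 6.15 and 6.35 (0.64 ± 0.13, limma adjusted p = 0.179). Of 10 bile duct markers 3 had the higher and 7 the lower mean (median -0.15), and 8 had a mean level below 5. The keratin gene Krt19 (-0.22 ± 0.14) and the tight junction genes Cldn7 (-0.18 ± 0.09) and Cldn4 (-0.17 ± 0.10) were among the lower, and Krt7 was below 5 in every pool. Gstm2, a glutathione transferase, read 9.28, 8.78 and 9.17 against 8.53, 8.53 and 8.42 (0.58 ± 0.16). Mt1 and Mt2, the metallothioneins, varied by more than 5 log2 units over the pools and overlapped, with differences of 1.67 ± 1.59 and 1.78 ± 1.52.

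**Figure D5:**
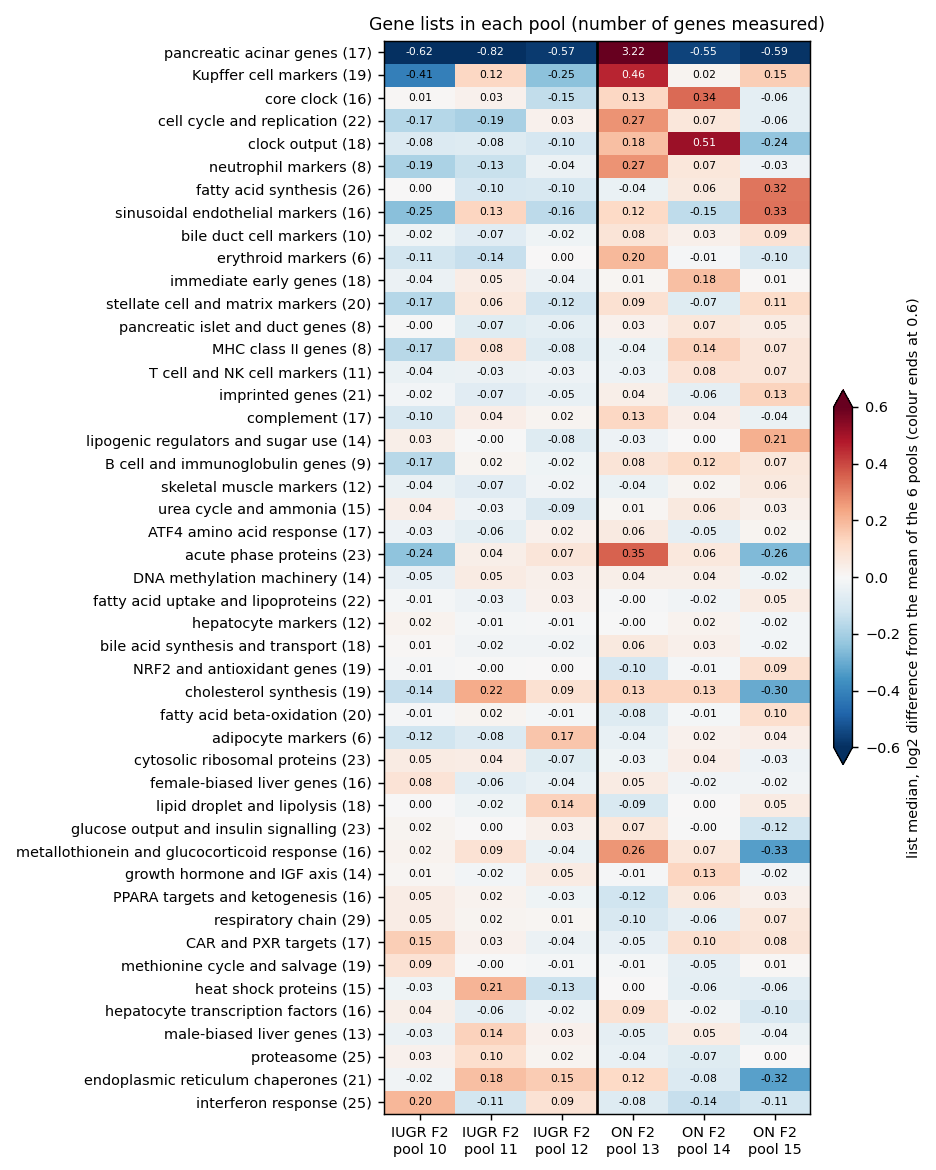
Median of each of 47 gene lists in each F2 pool, as the log2 difference of its members from their mean over the 6 pools, with the number of genes measured in brackets. Rows run from lists lower in IUGR F2 (top) to lists higher (bottom), and the colour scale ends at 0.6. Pool 13 stands out for the acinar genes (3.22) and Kupffer markers (0.46), and pool 14 for clock output (0.51).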

How the data were processed

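The authors' deposited values are log2 RMA levels per probe set of 15 arrays, 1 pool each, RMA being named per the submitters' processing notes with no version or genome build given in the sources used here. RMA corrects background, equalises the arrays by quantiles and compresses dim probe sets. Of 45101 probe sets, 64 controls were left out. Of the rest, 34945 had 1 gene symbol in GEO's platform annotation, 932 several and 9160 none, and 34741 matched the RefSeq table. The gene's probe set with the highest mean over the 12 exposed arrays was used, and probe sets ending in x or s can match related transcripts. With R 4.3.3 and limma 3.58.1, group means were fitted without covariates over those 12 arrays (8 residual and 4.55 prior degrees of freedom), two-sided, with a Benjamini-Hochberg threshold of 0.05. The fit was also run on simulated data with independent noise in each gene. Such data lack effects shared by many genes of a pool, so the run says nothing about those. An exact permutation of 3 against 3 pools cannot go below 0.10, so none was used. Named genes were the 10 with the smallest p in each direction, 5 in each direction of the interaction, and up to 4 members of each of 47 lists (787 of 877 entries measured) by p, with 3 wide-ranging members of the pancreatic, clock, B cell and MHC lists. The comparison, its members and the lists were chosen with earlier results of these data known. The chromosomal neighbours were named outside that rule, after their values were seen. So were Adgre1, C1qb, Cd5l, Cela1, Ciart, Cyp7a1, Fasn, Igfbp1, Irf7, Krt7, Mat1a, Mt1, Mt2, Nr1d2, Pnpla3, S100a8, Tef and Usp2. Alternatives covered the arrays, the probe sets, a filter on dim genes, normalization, the prior, array weights, a clock covariate and each pool left out. The number of arrays limits the precision, with a median standard error of 0.102, and 7805 genes had a mean below 5.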

Additional observations from a re-analysis of the deposited data

Results flagged for a closer look

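The difference between the lineages itself differed between the generations for 3 genes, by the interaction test in limma. For Adi1 the F2 difference minus the F1 difference was 1.61 (adjusted p = 0.000338). For Mmd2 it was -1.78 (adjusted p = 0.00688). For Aqp4 it was 2.97 (adjusted p = 0.0358) at the brightest of 3 probe sets, and 1.06 (adjusted p = 0.166) with its probe sets averaged. At the probe set used, the pools of the lineages lay apart in both generations in each of the 3, in opposite order. The third probe set of Adi1 kept its sign, with -0.17 in F1 and -0.30 in F2.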

How the results depend on the processing

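The count of 3 genes called between IUGR F2 and ON F2 became 0 with only the 6 F2 arrays (2024 genes at an unadjusted p under 0.05), 1 with all 15 arrays for the spread (Mmd2), 1 with quantile normalization repeated (Mmd2), 8 with array weights (the 3 and C1s1, Dnttip2, Niban3, Steap2 and Zkscan5) and 1 with the clock score as covariate (Steap2). It was 2 with all probe sets of a gene averaged (Adi1 and Mtif2). It stayed at 3 with dim genes left out, arrays centred on their median or another prior. With every probe set tested singly, 4 probe sets were called, including sets of Adi1 and Mmd2 but not of Mtif2. The count without pools 13 and 14 is not given, because that setting leaves ON F2 with pool 15 alone. With a single pool left out the count was 0 to 3: 0 without ON F2 pool 13 or 15, and 1 without IUGR F2 pool 10 (C1s1) or 12 (Mmd2). The interaction count of 3 became 1 with all probe sets of a gene averaged (Adi1), and was 2 to 4 with a pool left out. With every probe set tested singly, 5 probe sets passed, a count of probe sets and not of genes, and sets of all 3 genes were among them. Of genes at an unadjusted p under 0.05, 949 of 1783 were higher, against 645 of 1516 after repeated quantile normalization and 1318 of 1877 with arrays centred on their median. Directions turned with the clock score as covariate for Arntl (-0.13), Dbp (0.36), Nr1d2 (0.0094) and Clhc1 (-0.026), and with array weights for Papolb (-0.049). Arntl, Dbp and Nr1d2 are members of that score, so their turn under it was largely set by construction. Directions also turned without pools 13 and 14, a setting chosen after seeing the data, for Arntl (-0.0091), Ciart (0.13), Mat1a (0.028) and Papolb (-0.12). With a pool left out, values ran from -0.25 to 0.019 for Mat1a (positive without 11), -0.14 to 0.096 for Papolb (negative without 12 or 13), -0.24 to 0.011 for Trappc12 (positive without 10), -0.0052 to 0.13 for Wipi2 (negative without 15) and -0.048 to 0.14 for Clhc1 (negative without 10). The cause was not tested. The other genes whose differences are given kept their sign in the alternatives run. Of 102 genes followed through the alternatives, 35 moved by over 1.5 times when some single pool was left out. Over single genes, 2233 values kept sign and side of the threshold, 52 lost the threshold and 14 gained it, and 56 of the list medians moved against 471 that did not. No paired analysis was possible because the pools are numbered 1 to 15 and no number is shared between groups.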

Other observations

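Pool 15 of ON F2 was highest of the 6 pools in Pnpla3, a lipid droplet lipase gene induced by sugar, at 7.15 against 4.86 to 5.80 in the others, and in Ighm at 10.98. Pool 14 of ON F2 was highest in Igfbp1, a secreted binding protein of insulin-like growth factors, at 9.70 against 7.15 to 8.12. Pool 10 of IUGR F2 was highest in Irf7, a regulator of interferon genes, at 7.57 against 6.11 to 6.84. Orm2, an acute phase protein gene with near-identical copies whose separation by the probes is uncertain, read 11.80 and 10.60 in pools 13 and 14, 7.63 in pool 15 and 8.43 to 9.47 in IUGR F2.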
